A study of Caenorhabditis elegans with 7 samples.

Results

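The genes described here are those that copy the genome and divide the cell in C. elegans. They were chosen by name: every gene of the expression table whose name began with cdk, cya, cyb, cyd, cye, cki, mcm, orc, cdc, cdt, rfc, pcn, psf, bub, mdf or knl, followed by a number. The rule found 64 of 46778 genes, and 61 of them reached FPKM (fragments per kilobase of gene length, scaled to library size) of at least 0.5 in at least 3 of the 7 libraries, the filter that left 13194 genes for testing. By known function 24 members act in DNA replication, 20 in mitosis and 6 in G1 control. The other 14 share the naming but have other roles, such as the kinases of transcription.

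RNAseq was performed on whole L4 animals, the last larval stage, of N2, the wild-type strain used in most C. elegans laboratories. WT animals were unselected and gave 3 libraries. WT Late animals were from the same strain after at least 50 generations in which the next generation was always raised from the progeny of day 3 of adulthood, and gave 4 libraries. Both groups were grown from synchronized L1 larvae on OP50 bacteria with streptomycin. The labels call the libraries biological replicates. Since it is not stated that the 4 WT Late libraries came from separately selected lines, p-values measure the spread between these libraries only.

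A cell copies its DNA once per cycle. The origin recognition complex (ORC) marks the start sites in G1, where CDC-6 and CDT-1 load the MCM helicase. GINS and CDC-45 switch the helicase on in S phase, and the sliding clamp PCNA, placed on DNA by replication factor C (RFC), holds the polymerases in place. Mitosis is driven by CDK-1 with cyclins A and B, switched on by CDC-25 phosphatases, and is held by the spindle checkpoint until kinetochores are attached. In an L4 hermaphrodite the dividing cells are mainly the proliferating germ cells of the gonad, with smaller numbers of dividing somatic cells such as those of the vulva and somatic gonad.

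Reads on genes lay between 17553893 and 20961698 per library, and those on the 64 members between 17237 and 50747. Levels are given as rescaled FPKM, which is FPKM divided by 1 factor per library, between 0.848 and 1.38. The factor was set so that the median gene among those above 0 in all 7 libraries is level. WT libraries resembled each other (Spearman correlation across genes 0.919 to 0.938), while WT Late libraries correlated with them at 0.806 to 0.898. Of the WT Late libraries 2 stood apart. WT Late replicate 3 had the smallest share of reads on ribosomal protein genes, at 13.2% against 24.1% to 35.6% in the other libraries, and the most genes with a read, 18490. WT Late replicate 2 had the fewest genes with a read, 11069, and 0 reads on genes that other libraries detected well. Only 0.777% of its detected genes had 1 to 3 reads, against 4.67% to 12.3% in the other libraries. Across all genes tested the median log2 fold change of WT Late over WT was -0.13, and -0.01 after quantile normalization, so class and list medians are also given relative to it.

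No member passed the test. Of 61 tested members, 0 had a Benjamini-Hochberg adjusted p under 0.05 in limma, where 0.849% of all genes tested did (0.667% were higher and 0.182% lower in WT Late). The lowest adjusted p among members was 0.286, for rfc-4. Before adjustment 4 members had a limma p under 0.05, or 6.56%, while 8.89% of all genes tested did. All 4 were higher in WT Late, a direction in which 4.08% of all genes had such a p. In 4 members all WT Late libraries were above all WT libraries, again 6.56%, beside 4.67% of all genes tested. In 0 members were they all below, beside 5.09% of all genes. A voom fit on the recovered read counts also called 0 members (0.621% of all genes were called), with 3 members, or 4.92%, at an unadjusted p under 0.05, beside 9.04% of all genes. The fitted log2 fold changes ran from -1.07 to 1.04, with 26 members above 0 and 35 below, and 52 of the 61 lay between -0.7 and 0.7. Their median was -0.12, near that of all genes. Since RNA came from whole animals, fewer dividing cells and less RNA of a gene per cell cannot be told apart in any of these values.

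**Figure D1:**
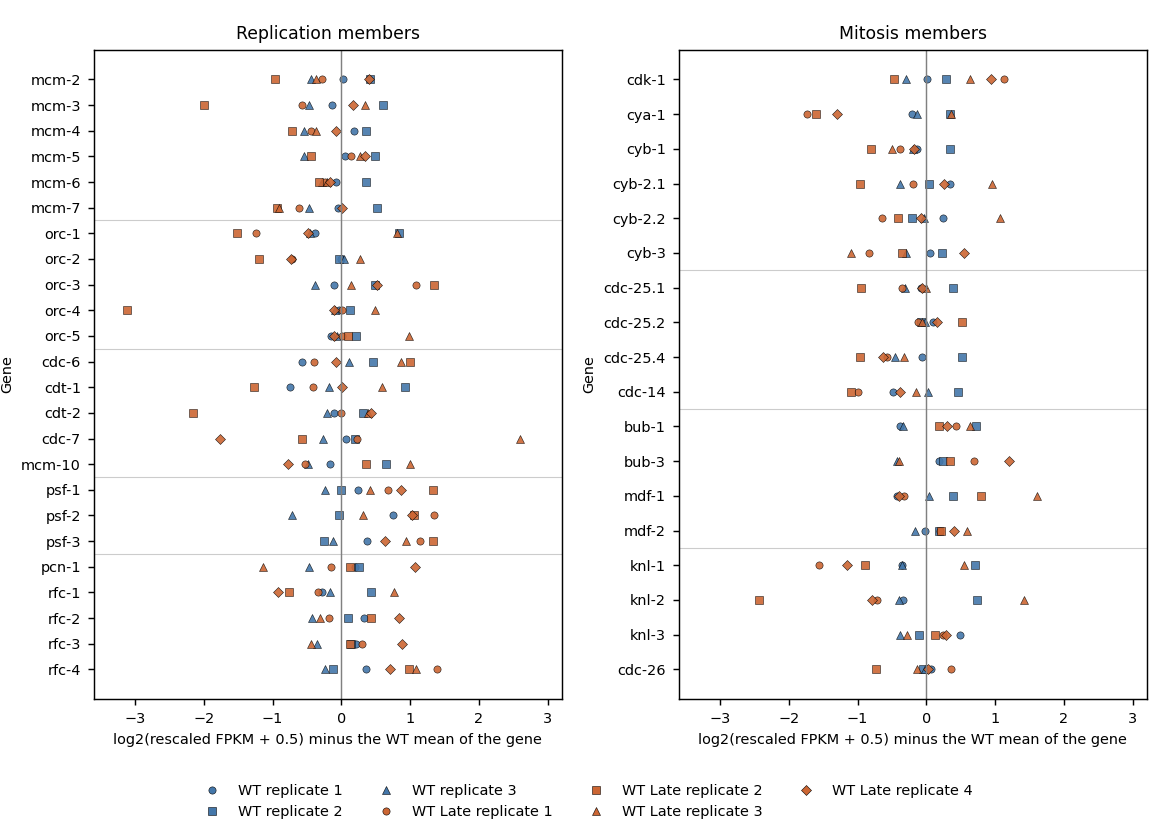
Level of each tested replication member (left, 24 genes) and mitosis member (right, 18 genes) in each of the 7 libraries, as log2 of rescaled FPKM plus 0.5 minus the gene's WT mean on that scale, with 1 point per library (blue WT, orange WT Late) and grey lines between subgroups. The orange points of rfc-4, psf-1 and psf-3 all lie right of the blue ones, while in cya-1 and knl-1 the triangle of WT Late replicate 3 lies apart from the other WT Late points.

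The members differed far more in level than between groups. The WT mean was at least 20 in 10 members and under 5 in 25. Among replication members pcn-1, which encodes PCNA, had the highest WT mean, 59.2 ± 15.2 (SD, n = 3), and cdt-1 the lowest, 0.914 ± 0.855 (SD, n = 3). When the 24 replication members were ordered by WT mean, 22 of the 23 neighbouring pairs had overlapping WT ranges, the exception being pcn-1 over rfc-4. Among mitosis members the cyclins cyb-1 and cyb-3, the checkpoint gene bub-3 and the kinase cdk-1 were highest, and 16 of 17 neighbouring pairs overlapped. The 2 cdc-48 paralogs cdc-48.1 and cdc-48.2, which encode the AAA ATPase that pulls ubiquitylated proteins from complexes, had WT means of 87.2 ± 11.17 and 84.8 ± 10.9 (SD, n = 3). These are closely related copies, as are cyb-2.1 with cyb-2.2 and cdk-11.1 with cdk-11.2, and how reads were divided between copies is not given, so their separate values are uncertain.

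The GINS genes had the highest median log2 fold change of the replication subgroups, at 0.94. GINS is the ring of PSF-1, PSF-2, PSF-3 and SLD-5 that joins CDC-45 and the MCM proteins to form the working helicase. Only its PSF subunits carry names in the rule. Psf-1 (WBGene00011275, 683 bases long, 6 exons) spans 9968659 to 9969631 of chromosome II, plus strand. Its rescaled FPKM was 9.96, 8.36 and 7.00 in WT replicates 1 to 3, and 13.6, 21.9, 11.3 and 15.7 in WT Late replicates 1 to 4. The groups did not overlap, and the log2 fold change was 0.82 ± 0.35 (SE), with an adjusted p of 0.505 in limma. Psf-2 (WBGene00009287, 595 bases, 2 exons) spans 15053025 to 15053670 of chromosome I, plus strand. It was at 13.3, 7.51 and 4.50 in WT and at 20.3, 16.6, 9.70 and 16.2 in WT Late. The groups overlapped through WT replicate 1 and WT Late replicate 3, and the log2 fold change was 0.94 ± 0.42 (SE), with an adjusted p of 0.549 in limma. Psf-3 (WBGene00022043, 735 bases, 4 exons) spans 534455 to 535344 of chromosome I, plus strand. It was at 7.60, 4.73 and 5.25 in WT and at 13.3, 15.2, 11.5 and 9.18 in WT Late. The groups did not overlap, and the log2 fold change was 1.01 ± 0.36 (SE), with an adjusted p of 0.364 in limma.

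Over the 3 genes the median log2 fold change was 0.94, or 1.06 above that of all genes tested, and each one kept a positive value in every alternative run. A two-sided exact permutation test, which has 35 ways to assign the group labels, gave p = 0.0571 for psf-1, 0.0857 for psf-2 and 0.0286 for psf-3, the last being the smallest p this design allows. Sld-5, the remaining GINS gene, is outside the naming rule and was added because it completes the complex. It was at 2.35, 2.39 and 2.96 in WT and at 3.39, 4.4002, 4.65 and 2.68 in WT Late, and its log2 fold change was 0.46 ± 0.41 (SE), at an adjusted p of 0.791 in limma. Its groups overlapped through WT Late replicate 4. Psf-1 and psf-2 overlap a coding gene on the other strand, R53.5 by 12 bases and F31C3.6 by 54 bases, and whether reads were counted by strand is not given. The log2 fold change of R53.5 was 0.39 and that of F31C3.6 was 0.17.

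RFC is a ring of one large and several small subunits that opens PCNA and places it around DNA. Rfc-4, a small subunit (WBGene00004340, 1157 bases, 8 exons), spans 6972210 to 6973717 of chromosome III, plus strand. Its rescaled FPKM was 23.3, 16.6 and 15.2 in WT, and 48.27, 36.1, 39.0 and 29.7 in WT Late. Every WT Late library was above every WT library, and WT Late replicate 3 sat in the middle of its group. The log2 fold change was 1.04 ± 0.33 (SE), or 2.06-fold, the highest of the members, with an adjusted p of 0.286 in limma and an exact permutation p of 0.0286. The other RFC genes did not stand where rfc-4 did. The log2 fold change was -0.32 for the large subunit rfc-1, 0.20 for rfc-2 and 0.22 for rfc-3, with overlapping groups in each. Pcn-1 itself, at 4047937 to 4049448 of chromosome IV, minus strand, was at 66.7, 69.3 and 41.7 in WT and at 52.0, 62.8, 25.8 and 122 in WT Late. The WT Late libraries spread on both sides of the WT ones, with replicate 4 highest and replicate 3 lowest, and the log2 fold change was -0.03 ± 0.48 (SE), with an adjusted p of 0.994 in limma. The sign of this value turned with the library left out, from -0.39 to 0.35.

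The genes of the helicase ring and of ORC lay on both sides of 0, and none passed the test. Of the 6 genes mcm-2 to mcm-7, which encode the ring of the helicase, 5 had a log2 fold change below 0, with a median of -0.35, or -0.22 relative to all genes tested, and a range of -0.61 (mcm-7) to 0.08 (mcm-5). Mcm-7 was at 10.7, 16.3 and 7.88 in WT and at 7.07, 5.61, 5.73 and 11.18 in WT Late, overlapping through WT Late replicate 4. Once each library's trend with gene length was removed, the median of the 6 was -0.02, or 0.03 relative to all genes tested. Among the 5 ORC genes orc-1, orc-2 and orc-4 lay below 0, at -0.61, -0.60 and -0.68, while orc-5 was at 0.25 and orc-3 at 0.77. The ORC median of -0.60 was -0.47 relative to all genes. After quantile normalization it was -0.34, or -0.33 relative to all genes. Orc-3 was at 1.95, 3.23 and 1.53 in WT and at 5.09, 6.24, 2.41 and 3.30 in WT Late, and its groups overlapped only through WT Late replicate 3. Orc-4 had 0 reads in WT Late replicate 2 and 45 to 300 reads in the others, and at 3.86, 5.62 and 3.54 the other WT Late libraries lay around the WT values of 3.74, 4.27 and 3.58. Orc-1 and orc-4 lie 63 bases apart on the plus strand of chromosome III.

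Of the loading and firing genes, cdc-6 was at 0.35, cdt-1 at -0.27, cdt-2 at -0.34, cdc-7 at 0.12 and mcm-10 at 0.01 on the log2 scale, each with overlapping groups. Cdt-1 passed the filter in 4 libraries, the fewest of the tested replication members. Cdt-2, whose product targets CDT-1 for destruction, also had 0 reads in WT Late replicate 2, beside 59 to 238 in the other libraries. Cdc-7, named for the kinase that fires origins in yeast, was at 1.97, 2.21 and 1.47 in WT and at 2.26, 1.08, 13.8 and 0.198 in WT Late. The WT Late values stretched far beyond the WT range at both ends, with replicate 3 highest and replicate 4 lowest.

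Mitosis members were spread around 0 as well, 8 above and 10 below, with a median log2 fold change of -0.07, or 0.06 relative to all genes tested. Quantile normalization left the median at -0.07 but put it -0.06 from that of all genes. Cyb-1, a B-type cyclin and the highest of them in WT (chromosome IV, 10735259 to 10737177, plus strand), was at 35.03, 49.1 and 33.6 in WT and at 29.6, 22.04, 27.1 and 34.2 in WT Late. Only WT Late replicate 4 reached into the WT range. Its log2 fold change was -0.47 ± 0.32 (SE), with an adjusted p of 0.731 in limma and an exact permutation p of 0.0857. Cdk-1, the mitotic kinase these cyclins activate, was at 19.9, 24.2 and 16.1 in WT and at 43.9, 14.2, 30.97 and 38.3 in WT Late. The kinase was above all WT libraries in all WT Late libraries but replicate 2, where it was below them, and its log2 fold change was 0.56 with an adjusted p of 0.749 in limma.

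Cyclin A had the lowest fold change of all members. Cya-1 (WBGene00000863, 2080 bases, 6 exons) spans 9106702 to 9109272 of chromosome III, minus strand. Levels were 2.26, 3.55 and 2.38 in WT, and 0.461, 0.548, 3.58 and 0.788 in WT Late. WT Late replicates 1, 2 and 4 were far below every WT library, and replicate 3 was level with the highest one. The log2 fold change was -1.07 ± 0.57 (SE), with an adjusted p of 0.637 in limma and an exact permutation p of 0.143. The other A-type cyclin gene, cya-2, was not tested, at 0 to 10 reads per library. The gene cya-1 overlaps dos-1 on the other strand by 104 bases, and the log2 fold change of dos-1 was 0.13.

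Knl-1 is the scaffold of the kinetochore's microtubule-binding network, and knl-2 is needed to place the centromeric histone. Knl-1 (chromosome III, 8250636 to 8254286, plus strand) was at 2.21, 5.13 and 2.21 in WT and at 0.678, 1.37, 4.57 and 1.06 in WT Late. Knl-2 (chromosome I, 6460433 to 6464286, plus strand) was at 1.63, 3.98 and 1.56 in WT and at 1.15, 0, 6.68 and 1.054 in WT Late, the 0 being WT Late replicate 2. As with cya-1, the WT Late libraries other than replicate 3 lay below every WT library in both genes. The log2 fold change was -0.76 ± 0.57 (SE) for knl-1 and -0.63 ± 0.76 (SE) for knl-2, with adjusted p of 0.753 and 0.853 in limma. For knl-1 the value was -0.30 with the length trend removed and -1.20 without WT Late replicate 3. For knl-2 it was -0.24 with the length trend removed, -0.03 without WT Late replicate 2 and -1.31 without WT Late replicate 3. Knl-2 overlaps acdh-3 on the other strand by 90 bases, and the log2 fold change of acdh-3 was 0.20. Knl-3 was at 0.10 and cdc-26, a subunit of the anaphase-promoting complex, at -0.12.

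The phosphatase genes cdc-25.1, cdc-25.2 and cdc-25.4 had log2 fold changes of -0.35, 0.12 and -0.62. Cdc-14 (chromosome II, 5589186 to 5593628, minus strand), whose phosphatase opposes CDK activity in yeast, was at 3.24, 6.72 and 4.81 in WT and at 2.13, 1.95, 4.23 and 3.53 in WT Late. The ranges overlapped, and its log2 fold change was -0.65 ± 0.44 (SE), with an adjusted p of 0.727 in limma. With the length trend removed it was -0.17. It shares 570 bases with C17G10.13 on the same strand, whose log2 fold change was 0.58, and reads in the shared stretch cannot be assigned to either gene.

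**Figure D2:**
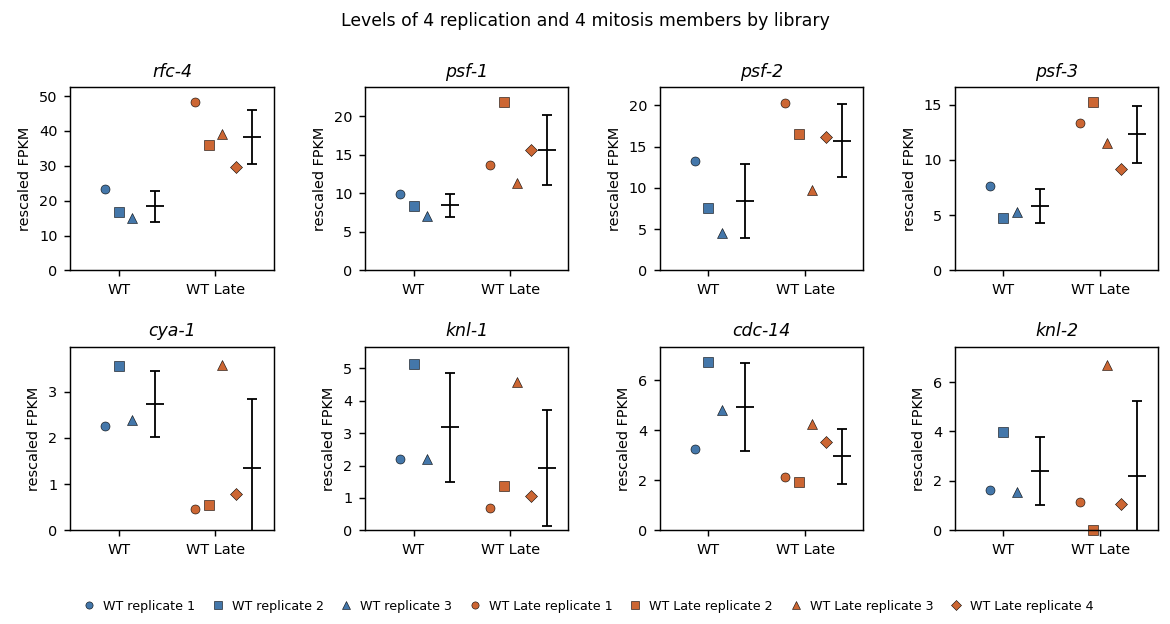
Rescaled FPKM of 4 replication members (top) and 4 mitosis members (bottom), with 1 point per library and the mean ± SD of each group beside it (WT n = 3, WT Late n = 4). Each panel has its own vertical axis from 0, and SD bars that would run below 0, as for cya-1 and knl-2 in WT Late, are cut there. The rfc-4 values are 15.2 to 23.3 in WT and 29.7 to 48.27 in WT Late, and in cya-1 WT Late replicate 3, at 3.58, lies level with the highest WT library.

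The 4 spindle checkpoint genes within the naming rule had log2 fold changes between 0.35 and 0.46, and 0 of 4 passed the test. Their median of 0.40 was 0.53 relative to all genes tested. Without WT Late replicate 3 the median was 0.29, or 0.48 relative to all genes tested. Bub-3 (chromosome II, 13726062 to 13729610, plus strand), which brings BUB-1 to kinetochores, was at 31.4, 32.8 and 20.3 in WT and at 45.1, 35.1, 20.8 and 63.99 in WT Late. It was above every WT library in all WT Late libraries but replicate 3, and its log2 fold change was 0.46 ± 0.41 (SE), at an adjusted p of 0.791 in limma. Mdf-2, which encodes the worm's MAD2, the inhibitor at the heart of the checkpoint, was at 7.11, 8.33 and 6.41 in WT and at 8.42, 8.49, 11.21 and 9.75 in WT Late. The groups did not overlap, but by a narrow gap, and the log2 fold change was 0.35 ± 0.34 (SE), with an exact permutation p of 0.0286 and an adjusted p of 0.808 in limma. Bub-1 was at 0.39 and mdf-1 at 0.42, or 0.02 without WT Late replicate 3. Checkpoint genes outside the naming rule, given after their values were seen, did not all share the sign. San-1, the worm's MAD3, was at -0.24 and rod-1 at -1.01, while zwl-1 was at 0.14, czw-1 at 0.43 and spdl-1 at 0.54.

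Replication was compared with mitosis in each library. Over the 7 libraries the replication median log2 fold change was -0.01, with 12 of 24 members above 0, and 0.10 after quantile normalization, or 0.12 and 0.11 relative to all genes tested. In the 4 WT Late libraries the replication median exceeded the mitosis median by 0.174, 0.216, 0.189 and 0.109, and in the 3 WT libraries by 0.022, 0.022 and -0.021. The WT Late values were all above the WT ones, but each gene was centred on its own WT mean, which holds the WT values near 0, and no test was run on this score. Its mean difference of 0.165 was small beside the range within either class. It was 0.246 with the length trend removed, 0.036 when only genes with FPKM of at least 5 were kept and 0.081 without WT replicate 3. With the length trend removed the libraries were separated narrowly, with WT replicate 1 at 0.136 and WT Late replicate 3 at 0.166. Both classes varied together between libraries. Their medians were 0.33 and 0.31 in WT replicate 2, -0.31 and -0.29 in WT replicate 3, and -0.38 and -0.60 in WT Late replicate 2, so libraries of 1 group differed by more than the class medians did between groups. Over all genes tested the medians in these libraries were 0.03, 0.01 and -0.26, so in WT Late replicate 2 the classes shared a library-wide fall.

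**Figure D3:**
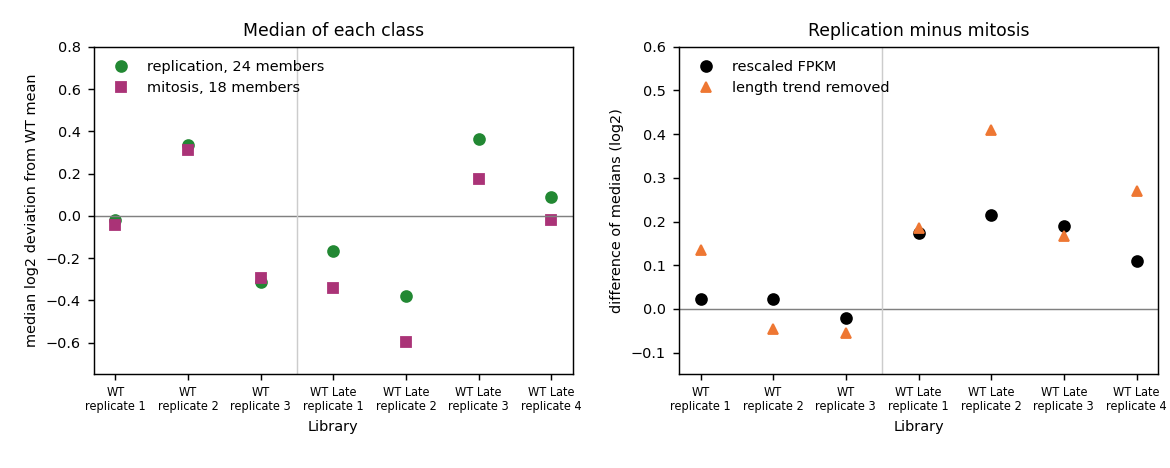
Left, median over 24 replication and 18 mitosis members in each library of log2(rescaled FPKM + 0.5) minus the gene's WT mean. The same median over all genes tested, not drawn, is -0.03, 0.03 and 0.01 in WT replicates 1 to 3. It is -0.09, -0.26, 0.07 and -0.10 in WT Late replicates 1 to 4. Right, the replication median minus the mitosis median, with each library's length trend removed (triangles) or not (circles). The circles are at 0.109 to 0.216 in the 4 WT Late libraries and at -0.021 to 0.022 in the 3 WT libraries.

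The Cip/Kip genes lay on opposite sides of 0. CKI-1 and CKI-2 are the inhibitors that hold CDK complexes in G1, and their genes lie 4404 bases apart on chromosome II. Cki-1 was at 23.9, 13.5 and 26.2 in WT and at 38.4, 49.04, 9.33 and 45.5 in WT Late. It was above every WT library in all WT Late libraries but replicate 3, where it was below them, and its log2 fold change was 0.55 with an adjusted p of 0.816 in limma. Cki-2 (7816509 to 7820301, plus strand) was at 8.47, 10.1 and 8.11 in WT and at 4.58, 3.44, 5.15 and 8.29 in WT Late. It was below every WT library in WT Late replicates 1, 2 and 3, and its log2 fold change was -0.74 ± 0.39 (SE), at an adjusted p of 0.637 in limma. The difference between the paralogs was not tested.

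Cyclin E, which starts S phase with CDK-2, was encoded by cye-1 (chromosome I, 6780806 to 6784396, plus strand) at 4.83, 8.85 and 5.65 in WT and 2.48, 3.30, 6.39 and 4.395 in WT Late. WT Late replicate 3 alone lay within the WT range, and the log2 fold change was -0.61 ± 0.43 (SE), with an adjusted p of 0.742 in limma. Cdk-2 was at 0.08 and cdk-4 at -0.29, both with overlapping groups. Cyd-1, for cyclin D, was not tested, since it reached the filter in 1 library.

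Of the members with other roles, 4 were above 0 and 10 below, with a median of -0.17, or -0.04 relative to all genes tested. Cdk-12, a kinase of the RNA polymerase II tail (chromosome III, 4332996 to 4340464, plus strand), was at 2.77, 5.76 and 4.94 in WT and at 1.497, 1.58, 3.59 and 2.38 in WT Late, with a log2 fold change of -0.86 ± 0.46 (SE). Cdk-7, which activates other CDKs and phosphorylates the same tail (chromosome I, 2281504 to 2291183, minus strand), was at 6.77, 4.94 and 4.10 in WT and at 7.71, 6.39, 17.7 and 4.72 in WT Late, with a log2 fold change of 0.59 ± 0.46 (SE). WT Late replicate 3 was the highest library for cdk-7, whose log2 fold change was 0.23 without it, and neither gene passed the test, with adjusted p of 0.639 and 0.761 in limma. The other members of this class had log2 fold changes between -0.58 (cdc-37, an HSP-90 partner for kinases) and 0.13 (cdk-5, a kinase of neurons).

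WT Late replicate 3 broke many of these patterns. Of the 61 members 18 had their highest level there, as many as in WT replicate 2, and 25 had their lowest in WT Late replicate 2. The same counts were not made over all genes tested, so they are not shown to be particular to the members. WT Late replicate 3 also had the most genes with a read, 18490, and WT Late replicate 2 the fewest, 11069. Without WT Late replicate 3 the limma fit called 4.74% of all genes tested and 0 members, with 12 members, or 19.7%, at an unadjusted p under 0.05 beside 25.9% of all genes. The lowest adjusted p was 0.0608 (cya-1), followed by 0.0615 (cki-1). In that fit the log2 fold change of cya-1 was -1.55 and that of cki-1 was 1.09. The groups then separated upward in 8 members, or 13.1%, beside 13.7% of all genes, and downward in 10 members, or 16.4%, beside 18.5%. The 8 were rfc-4, psf-1, psf-2, psf-3, orc-3, bub-3, mdf-2 and cki-1. The 10 were orc-1, orc-2, rfc-1, cya-1, knl-1, knl-2, cdc-25.4, cye-1, cdk-12 and cdc-48.3. The medians without it were -0.26 for replication and -0.26 for mitosis, or -0.08 and -0.07 relative to all genes. A fit that gave each library a weight set that library at 0.194, the lowest of the 7, and called 3 members, beside 8.02% of all genes. They were rfc-4 (log2 fold change 1.13, adjusted p 0.0251), psf-2 (1.27, 0.0438) and cya-1 (-1.43, 0.0385), with p-values adjusted over all genes in limma.

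**Figure D4:**
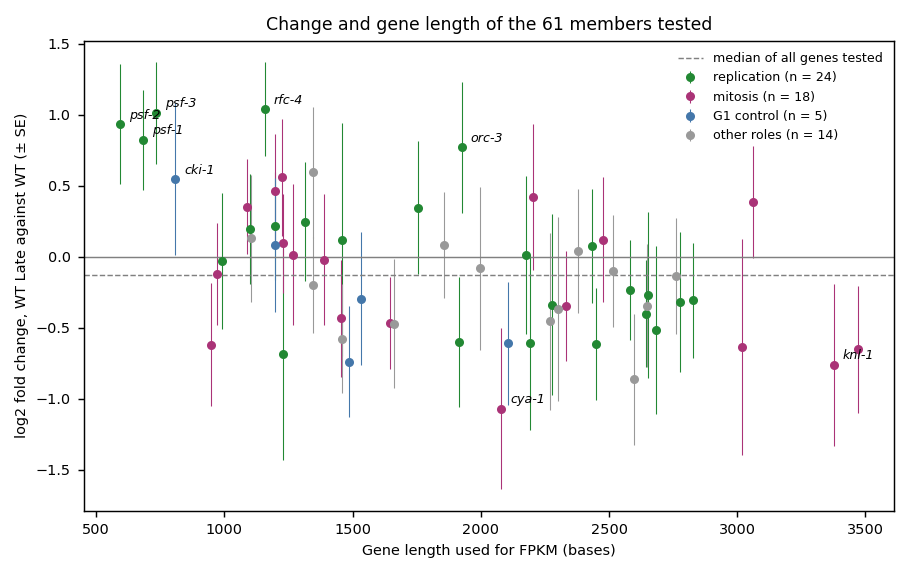
Log2 fold change of WT Late over WT, with its standard error from limma, against gene length in bases for the 61 tested members, coloured by class. The dashed line is the median of all genes tested, -0.13. The GINS genes, at 595 to 735 bases, lie highest with rfc-4 and most members over 2000 bases lie below 0, with a Spearman correlation of -0.50 over the 61 members and -0.23 over all 13194 genes tested.

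Fold changes of the members varied with gene length. Over the 61 members the Spearman correlation of log2 fold change with deposited gene length was -0.50, and over the 24 replication members it was -0.63. These are correlations across genes of the same 7 libraries, not across samples, and over all 13194 genes tested the value was -0.23. The 4 replication members shorter than 1000 bases were pcn-1 and the GINS genes psf-1, psf-2 and psf-3 given above. Their median was 0.88 on the log2 scale, that of the 9 from 1000 to 2000 bases 0.22, and that of the 11 longer ones -0.32. The same bins over all genes tested gave -0.0027, -0.03 and -0.46. With each library's length trend removed, the correlation was -0.19 over the members and -0.47 over the replication members, and the GINS median was 0.86. Single members moved unequally on that removal. Mcm-2 went from -0.31 to 0.05, and the values were -0.56 for cdk-12, 0.73 for psf-1, 0.86 for psf-2, 0.92 for psf-3 and 0.98 for rfc-4. The cause of the length trend was not tested.

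The rest of the replication machinery, from a list of genes outside the naming rule, also lay on both sides of 0. It holds the polymerases, primase, RPA, ligase and nucleotide synthesis genes. Of its 24 tested genes 12 were above 0 and 12 below, with a median log2 fold change of 0.07, or 0.20 relative to all genes tested. In limma and in voom 0 passed the test, with 2 of the 24 at an unadjusted p under 0.05 in each. Of all genes tested 8.89% had such a p in limma and 9.04% in voom. The largest values were -2.55 ± 0.97 (SE) for gmn-1, the gene of the CDT-1 inhibitor geminin, 1.16 ± 0.38 (SE) for tyms-1, the thymidylate synthase gene, and 0.85 ± 0.57 (SE) for sld-2. Gmn-1 was at 32.3, 23.4 and 12.4 in WT and at 2.09, 0, 5.81 and 22.3 in WT Late, with the 0 in WT Late replicate 2. Tyms-1 was at 6.89, 8.66 and 5.55 in WT and at 20.1, 16.8, 9.65 and 20.7 in WT Late, with groups that did not overlap. Their adjusted p-values in limma were 0.418 for gmn-1, 0.305 for tyms-1 and 0.718 for sld-2.

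Of 52 tested genes of mitosis outside the naming rule (kinetochore, centrosome, condensin, anaphase-promoting complex and others), 17 were above 0 and 35 below. Their median was -0.23, or -0.10 relative to all genes tested. It was -0.02, or 0.03 relative, with the length trend removed, and -0.47, or -0.28 relative, without WT Late replicate 3. In limma and in voom 0 passed the test, with 1 of the 52 at an unadjusted p under 0.05 in each. Such a p was found in 8.89% of all genes tested in limma and 9.04% in voom. Fzr-1, the activator of the anaphase-promoting complex in G1, had the lowest value, -1.43 ± 0.40 (SE), with an adjusted p of 0.200 in limma. It was at 10.4, 11.13 and 14.9 in WT and at 4.63, 2.25, 4.73 and 5.79 in WT Late, and the groups did not overlap, with WT Late replicate 3 on the low side as well. The kinetochore genes hcp-1 and hcp-2 followed at -1.39 and -1.32, with adjusted p of 0.579 and 0.640 in limma, and both overlapped through WT Late replicate 3. Of 14 regulators of S phase 3 were above 0 and 11 below. Their median was -0.34, or -0.22 relative to all genes tested, but -0.06, or -0.05 relative, after quantile normalization. It was -0.07, or -0.02 relative, with the length trend removed, and -0.75, or -0.56 relative, without WT Late replicate 3. In limma 0 passed the test and 1 of the 14 had an unadjusted p under 0.05, beside 8.89% of all genes tested. In voom both counts were 0. Cks-1, for the small partner of CDKs, was at 12.9, 15.1 and 14.1 in WT and at 17.4, 24.7, 30.8 and 24.9 in WT Late, with groups that did not overlap, at a log2 fold change of 0.75 (adjusted p 0.512 in limma). Efl-2, an E2F factor, was at -0.90 and lin-23, an F-box protein gene that limits division, at -0.74, with adjusted p of 0.718 and 0.675 in limma.

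**Figure D5:**
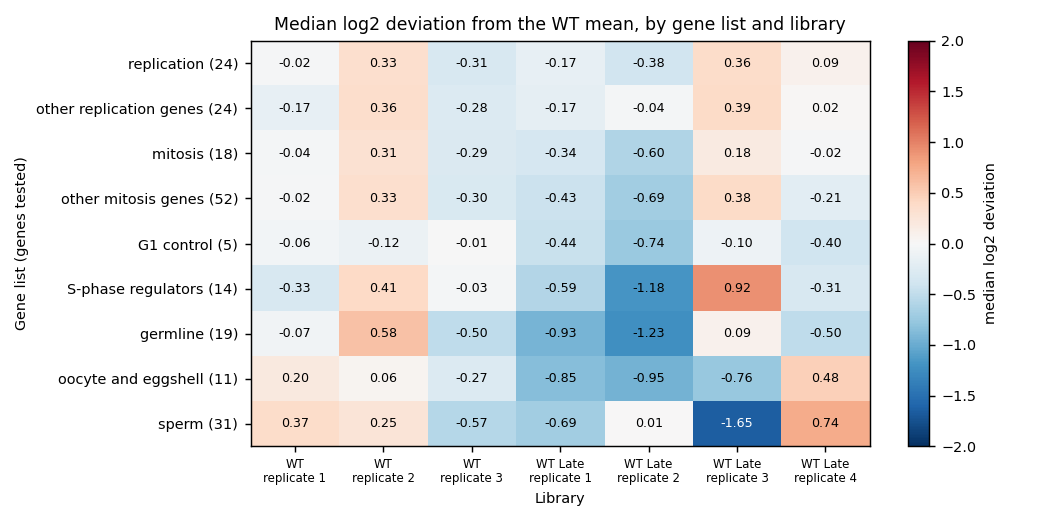
Median over each gene list, in each library, of log2(rescaled FPKM + 0.5) minus the gene's WT mean, printed and coloured from blue (below 0) to red (above 0), with the number of genes tested beside the list. Germline markers lie below 0 in WT Late replicates 1, 2 and 4 (-0.50 to -1.23) and at 0.09 in WT Late replicate 3. In WT replicates 1 to 3 they lie at -0.07, 0.58 and -0.50. Replication members lie between -0.38 and 0.36 in WT Late. The median over all genes tested, not drawn, is -0.09, -0.26, 0.07 and -0.10 in WT Late replicates 1 to 4.

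Because many of the dividing cells of an L4 are germ cells, markers of the germline and of other tissues were set beside the members. Over 19 germline markers, such as glp-1 and gld-1, the median was -0.69 on the log2 scale, or -0.56 relative to all genes tested, with 1 above 0 and 18 below. Without WT Late replicate 3 it was -1.04, or -0.85 relative to all genes tested. With the length trend removed it was -0.48, or -0.43 relative, and after quantile normalization -0.48, or -0.47 relative. In limma and in voom 0 passed the test and 1 of the 19 had an unadjusted p under 0.05. Over all genes tested the share with such a p was 8.89% in limma and 9.04% in voom. Their summed rescaled FPKM was 141 to 330 in WT and 77.2 to 267 in WT Late, and 4 of the 19 were at 0 in WT Late replicate 2 and 0 in each other library. The sperm list had a median of -0.41, or -0.28 relative to all genes tested, and the oocyte and eggshell list one of -0.51, or -0.39, with 0 genes passing the test in either (unadjusted p under 0.05 for 0 and 1 genes in limma, and for 1 in each list in voom). Without WT Late replicate 3 the sperm median was -0.02, or 0.16 relative to all genes tested, and the oocyte and eggshell median -0.40, or -0.22. With the length trend removed the sperm median was -0.40, or -0.35 relative, and the oocyte and eggshell median -0.31, or -0.26 relative. The summed level of the sperm list was 5934 to 11990 in WT and 2868 to 16383 in WT Late. Most genes of that list are msp genes of the same family, and how reads were divided between them is not given. Their values may not be separate measures. In the intestine list 5 of 11 genes passed the test in limma and were lower in WT Late, beside 0.182% of all genes tested. In voom 4 of the 11 passed, beside 0.621% of all genes called in either direction. The 5 in limma were the yolk protein genes vit-1, vit-3, vit-4, vit-5 and vit-6, the last at an adjusted p of 0.0492. The genes of the list other than the vit genes did not pass in limma, at 0.70 for cpr-6, 0.38 for elt-7, 0.28 for ges-1, -0.00072 for elt-2 and -0.13 for asp-1. The muscle list had a median of -0.28, or -0.15 relative to all genes tested, with a deviation of -1.78 in WT Late replicate 3. Without that library its median was 0.22, or 0.41 relative to all genes tested. Over the 7 libraries with the length trend removed, the muscle median was -0.0048, or 0.05 relative. The part of tissue makeup in the members' values was not tested.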

How the data were processed

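Whole N2 L4 animals were washed in M9, lysed in TRI reagent and their RNA was purified with a Zymo Direct-zol kit. Novogene did the sequencing and quantification. FPKM values, deposited by the authors with gene length and coordinates, cover 46778 genes in 7 libraries. No source used here names the aligner, the counter, its strand setting or the genome build. Coordinates are as deposited. All 64 members carry the same name in WBcel235 (Ensembl release 115), where 20 have identical coordinates, and exon numbers are from that annotation. Whole reads were recovered from FPKM (100% of values above 0 came out whole, to within 0.02 reads) and give the depths above. They do not separate PCR copies from molecules.

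A median-of-ratios factor was removed from each library. Genes that reached FPKM 0.5 in 3 or more libraries were tested on log2(rescaled FPKM + 0.5), a scale that understates changes of low genes, with limma 3.58.1 (lmFit, eBayes with trend) in R 4.3.3. The test was two-sided with Benjamini-Hochberg adjustment over 13194 genes at 0.05. Tables were made in Python 3.11.15 with pandas 2.3.3, and the fit was tested on simulated data. The simulated libraries shared the same gene profile apart from the genes set to change. They had none of the uneven libraries or length trends described above, so the fit was not tested under those. Depth limits low members most, and p-values rest on 3 and 4 libraries.

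The members, classes, lists and tests were chosen with earlier results of these data known. Full values are given for the 4 members of largest absolute log2 fold change in replication and in mitosis, the 2 in each other class, and the 2 of highest mean level in replication and in mitosis. The 3 largest of the other replication, other mitosis and S-phase lists are named, some by fold change alone, and marker lists are given by summary values. Mdf-2, orc-3, orc-4, mcm-7, cdc-7, cdk-1 and cki-1 were added after their values were seen. Of the marker lists, the epidermis list had a median of 0.15, or 0.28 relative to all genes tested, with 5 genes above 0 and 3 below. Of its 8 genes 1 was called higher, dpy-7 at a log2 fold change of 2.96, beside 0.667% of all genes tested. The alternatives changed the scaling (none, or quantile normalization), the pseudocount (0.1 or 1), the filter (none, or FPKM 5), the variance trend (none), the fit (library weights, voom on recovered reads, a replicate block), the fold limit (log2 fold change of at least 1) or the length trend (removed), or left out each library.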

Additional observations from a re-analysis of the deposited data

Results flagged for a closer look

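In cya-1, the cyclin A gene, WT Late replicate 3 was far from the other WT Late libraries, at a rescaled FPKM of 3.58 beside 0.461 to 0.788. It was the 1 value of 19 sets of 4 WT Late values tested in which a library lay past Dixon's 95% critical value for 4 values (gap over range 0.895), a rate that chance alone gives in about 1 of 20 groups. Over the 61 tested members 4 had such a library, and in each of the 4 it was WT Late replicate 3. This count was not made over all genes tested, so it is not shown to be particular to the members.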

How the results depend on the processing

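Over all genes, 88 were called higher and 24 lower. The counts were 42 and 9 with no filter, 500 and 558 with library weights, and 499 and 211 with the length trend removed and WT Late replicate 3 left out, a setting chosen after seeing the data. Quantile normalization gave 43 lower. Leaving out 1 library in turn gave 23 to 356 higher and 5 to 269 lower, with the lowest counts without WT replicate 1 and the highest without WT Late replicate 3. Counts of called members stayed at 0 in every setting but library weights, with 3. The replication minus mitosis difference of 0.165 was 0.266 with quantile normalization, 0.081 with no filter, 0.036 at a minimum FPKM of 5, 0.246 with the length trend removed, 0.270 with that and WT Late replicate 3 left out, and 0.081 to 0.282 with 1 library left out. Pcn-1 turned from -0.03 to 0.34 with library weights and 0.062 with voom, and ranged from -0.39 to 0.35 with 1 library left out. With WT replicates 1 and 2 left out in turn it was 0.08 and 0.10, with WT Late replicates 1 and 3 left out 0.01 and 0.35, and with the length trend also removed 0.31 for the latter. The cause was not tested for any of these. Of 280 values of 15 named members across settings, 270 kept direction and side of the threshold.

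With replicate number as a block, 67 genes were higher and 32 lower, 2 members had an unadjusted p under 0.05 and 0 passed the adjusted threshold. The correlations of deviations of same-numbered libraries were 0.24, -0.09 and -0.18, within the -0.33 to 0.31 of differently numbered ones. Whether the numbers pair the libraries is not stated and cannot be told from these values.

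With 3 and 4 libraries, the smallest exact permutation p is 0.0286. A member at 0 reads in WT Late replicate 2 was not detected in that library, which does not show that it was absent. Reads on genes were 17553893 in that library and 17647347 in WT Late replicate 3, and the cause of its 0 values was not tested.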
